A study of Mus musculus with 8 samples.

Results

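A set of 10 genes of endothelial identity and arterial character were followed across the lungs of newborn mice treated with retinoic acid, dexamethasone, both or neither. They were Gja4, Gja5, Efnb2, Tek, Tie1, Angpt1, Eng, Acvrl1, Cdh5 and Pecam1, and they were taken as every probe set that the array's annotation assigns to them alone. This gave 13 probe sets of 12422, or 10 genes of 8251 with a symbol. Of these, 9 genes with 12 probe sets passed the filter on low signal, among 5618 genes and 7309 probe sets tested in all.

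Whole lungs of mice were profiled on 8 Affymetrix arrays, 2 in each of 4 groups. On day 3 of life the animals received oil or retinoic acid, and on day 4 saline or dexamethasone. The groups were Dex (oil, then dexamethasone), RA (retinoic acid, then saline), RA-Dex (retinoic acid, then dexamethasone) and Dil, a name that the labels leave undefined and that was read as oil, then saline, the one arm otherwise missing. The labels name no strain, dose or interval to dissection. The arrays of a group are lettered a and b, and nothing says that they came from separate animals, so a p-value here reflects the spread of these arrays, which may be technical, and the number of arrays limits the precision.

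Endothelial cells line every vessel of the lung, and the growth of the capillary bed accompanies the division of the air sacs after birth. Cells of arteries carry the connexins encoded by Gja4 and Gja5, which form gap junctions between neighbouring cells, and the membrane ligand ephrin B2 encoded by Efnb2. Tek (Tie2) is the receptor of the angiopoietins, Tie1 its partner and Angpt1 its activating ligand, made mainly by mesenchymal cells around vessels. Eng (endoglin) and Acvrl1 (ALK1) form a receptor complex for bone morphogenetic proteins in endothelium, Cdh5 encodes the cadherin of endothelial adherens junctions, and Pecam1 encodes an adhesion molecule of endothelium, platelets and leukocytes.

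The tissue label and the dexamethasone labels were checked against marker genes. The summed signal of 7 lung markers with a probe set, among them surfactant and alveolar genes, lay between 157683 and 211976 on the 8 arrays. Of 11 tested glucocorticoid-responsive genes 11 rose with dexamethasone, including Zbtb16 (log2 fold change 3.97 ± 0.141 SE) and Fkbp5 (2.39 ± 0.114). Median signals per array lay between 317 and 343. The Dil arrays carried the highest summed signals of 10 skeletal muscle markers, 6056 and 6386 against 3239 to 4836 elsewhere, of 10 squamous epithelium markers, 5801 and 9794 against 2725 to 4428, and of 9 heart muscle markers, 25459.7 and 26387 against 16926 to 21589. The part of these in comparisons with Dil was not tested, and RA-Dex against RA, in which no Dil array takes part, is given beside the dexamethasone averages.

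The sequences ahead of the start sites of the arterial connexin genes are shown because 1 of these 2 transcripts, Gja4, was called lower with dexamethasone and the other was not. They are the 250 bases before the annotated start in RefSeq, build GRCm38.p6, written 5′ to 3′ on the strand of the gene, and capitals mark the letters GGGCGG, the core that Sp1 recognises. The Gja4 window is chr4:127314040-127314289 on the minus strand and the Gja5 window is chr3:97032152-97032401 on the plus strand.
Gja4: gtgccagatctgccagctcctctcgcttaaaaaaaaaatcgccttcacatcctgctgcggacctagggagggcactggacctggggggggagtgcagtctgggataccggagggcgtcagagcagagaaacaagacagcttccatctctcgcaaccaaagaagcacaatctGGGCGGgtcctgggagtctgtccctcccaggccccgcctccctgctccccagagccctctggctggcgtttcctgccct
Gja5: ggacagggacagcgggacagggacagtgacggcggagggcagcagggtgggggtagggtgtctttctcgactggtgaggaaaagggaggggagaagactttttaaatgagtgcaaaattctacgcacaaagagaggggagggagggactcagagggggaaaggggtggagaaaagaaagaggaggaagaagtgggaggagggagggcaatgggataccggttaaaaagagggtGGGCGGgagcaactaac

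A few short motifs were searched on both strands in these windows. The half-site of the glucocorticoid receptor, AGAACA, had 0 matches in either connexin window and was in 16.1% of 32851 windows of the same length. The motif of RBPJ, the DNA-binding partner of Notch, was searched as GTGGGAA, had 0 matches in either and was in 5.42% of windows. That of the SOX factors, AACAAT, had 0 matches in either and was in 9.42%. GGGCGG was found once in each, 79 bases before the start of Gja4 and 17 before that of Gja5, and in 32.7% of all windows. The core of the ETS factors, GGAA, which the RBPJ motif also holds, was found 2 times for Gja4 and 3 times for Gja5 and is in 93.4% of all windows, and no match overlapped that of Sp1 in these windows. Among the 6 genes of the set present in the sequence table (also Tek, Tie1, Eng and Efnb2), AGAACA occurred in 1, Tek, 158 bases before the start. These matches are descriptions of letters, not of binding.

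Gja4 was the only member called with dexamethasone, and it fell in every comparison of a dexamethasone group with a group given saline on day 4. Its signal was 2289.7 and 2199.8 in Dil, 2019.9 and 2024 in RA, 796 and 792 in Dex, and 922 and 661 in RA-Dex. The 4 dexamethasone arrays therefore lay well below the 4 others, without overlap. Averaged over the day 3 treatment, its level with dexamethasone was 0.37 of that without (log2 fold change -1.44 ± 0.135 SE, 95% interval -1.73 to -1.14, limma adjusted p = 7.83e-05, 4 of 4 dexamethasone arrays below all others). Of all tested genes 3.83% were called lower in this comparison, and Gja4 ranked 11 among 5618 by the size of its fall.

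**Figure D1:**
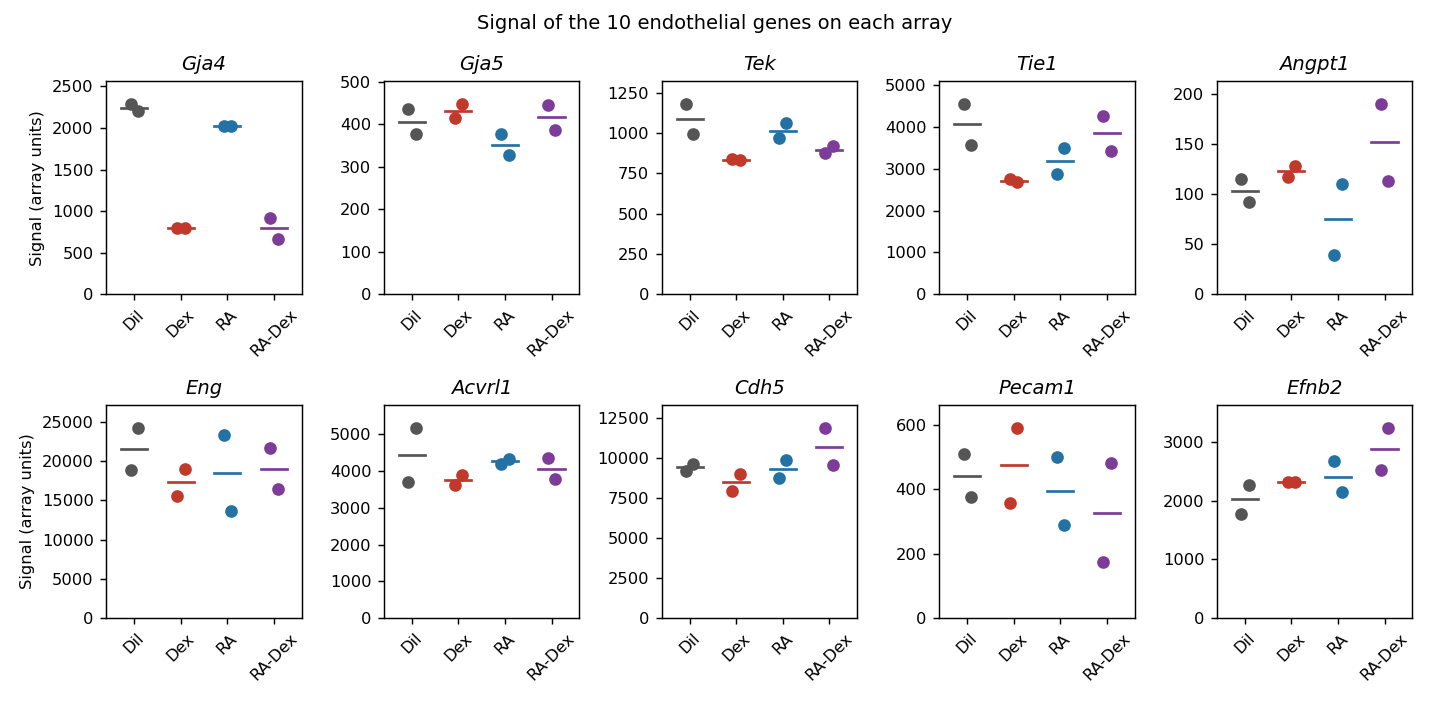
Signal (array units, each axis starting at 0) of the 10 genes in the 4 groups, by the probe set of highest mean signal. Points are single arrays and bars the mean of 2. Gja4 lies at 661 to 922 on the dexamethasone arrays and at 2019.9 to 2289.7 on the others, while the groups of most other genes overlap.

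Gja4 fell both with and without earlier retinoic acid. In Dex against Dil it fell to 0.354 (log2 fold change -1.50 ± 0.191, limma adjusted p = 0.00162, 2 of 2 arrays lower), where 1.28% of tested genes were called lower. In RA-Dex against RA it fell to 0.386 (-1.37 ± 0.191, limma adjusted p = 0.0027, 2 of 2 arrays lower), with 1.41% called lower, although this call was lost when a change of more than 0.5 on the log2 scale was required (limma adjusted p = 0.0561). The second of these effects minus the first, the interaction, was 0.13 with a 95% interval of -0.47 to 0.72 (limma adjusted p = 0.972). With 2 arrays a group, differences within that interval were compatible with the data, and the smallest difference that could be called was not estimated. RA-Dex against Dil gave -1.52 ± 0.191 (limma adjusted p = 0.0011), with 1.53% of genes called lower, and this comparison shares the Dil arrays with Dex against Dil.

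By group mean, Gja4 stood in the order Dil (2245 ± 63.6 SD, n = 2), RA (2022 ± 3.22), Dex (794 ± 3.12) and RA-Dex (792 ± 185). Both Dil arrays lay above both RA arrays and so above the 6 others, as they did for 6.48% of tested genes. The limma fit, whose variance is shared over the groups, gave RA against Dil at -0.15 (95% interval -0.57 to 0.27, limma adjusted p = 0.895). The dexamethasone groups overlapped, and RA-Dex against Dex gave -0.02 (-0.45 to 0.40). The RA-Dex arrays were the least alike, replicate a at 922 and replicate b at 661, and without replicate a or b the log2 fold change of RA-Dex against RA was -1.61 or -1.13.

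The level of Gja4 within an array was set against that of 2 other members as a description, chosen with the fall of Gja4 already known. The log2 ratio of Gja4 to Gja5 was 2.50 ± 0.11 (SD, n = 4) without dexamethasone and 0.90 ± 0.124 with it. The log2 ratio of Gja4 to Cdh5 was -2.14 ± 0.116 without dexamethasone and -3.60 ± 0.228 with it. In each ratio the 4 dexamethasone arrays lay below the 4 others, as the signals of Gja4 alone did.

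In whole lung, fewer arterial cells and less Gja4 RNA per cell cannot be told apart. The summed signal of 26 other endothelial genes with a probe set was 70878 to 77407 on the dexamethasone arrays and 67145 to 72719 on the others, with 1 gene of the list, Podxl, at or under the floor of 85.3 on all arrays. For 14 other arterial and Notch genes the sum was 22252 to 22258 in Dex and 25061 to 25240 in RA-Dex. It was 24933 to 25167 in Dil and 22247 to 25393 in RA, with Foxc1 at or under the floor on all arrays. Such sums are carried by the brightest genes of a list. The leukocyte markers moved with Gja4: 5 of 8 tested fell (1 with a minimum change of 0.5) and 0 rose, and their summed signal over 10 genes was 7337 to 9011 on the dexamethasone arrays and 11976 to 15046 on the others, with the T cell gene Cd3e at or under the floor on all arrays. Among the falls, that of Cd79a was lost in 13 of 18 alternatives of processing and that of Laptm5 in 11 of 19. The summed signal of 12 smooth muscle and pericyte markers was 24961 to 29088 with dexamethasone and 28579 to 35026 without, and none was under the floor on all arrays. Of 11 tested, 3 were lower (0 with a minimum change of 0.5, or in RA-Dex against RA fitted without both Dil arrays). Of the same 11, 1 was higher, Rgs5. Its call was lost in 11 of 18 alternatives of processing, among them no filter and the mean over its probe sets (0.28, limma adjusted p = 0.482). The part of any of these lists in the fall of Gja4 was not tested.

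The genes whose pattern over the 8 arrays was nearest to that of Gja4 were Unc5c, Cd52 and Ccn4. Likeness was the root mean square difference of log2 values after each gene was centred on its own mean, and the values were 0.14, 0.17 and 0.17 among 6615 probe sets, against a median of 0.75. Unc5c, a netrin receptor, had signals of 1321 and 1373 in Dil, 1308 and 1061 in RA, 421 and 380.5 in Dex, and 474 and 393 in RA-Dex. Cd52, a surface antigen of leukocytes, fell with dexamethasone by 1.32 on the log2 scale, and Ccn4, a matricellular protein, by 1.31. These genes were picked for likeness to Gja4 on the same arrays, so falls near that of Gja4 follow from the choice. No other member was among them. That absence decides nothing, because only the closest of 6615 probe sets were kept and Gja4 alone of the members was called with dexamethasone.

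**Figure D2:**
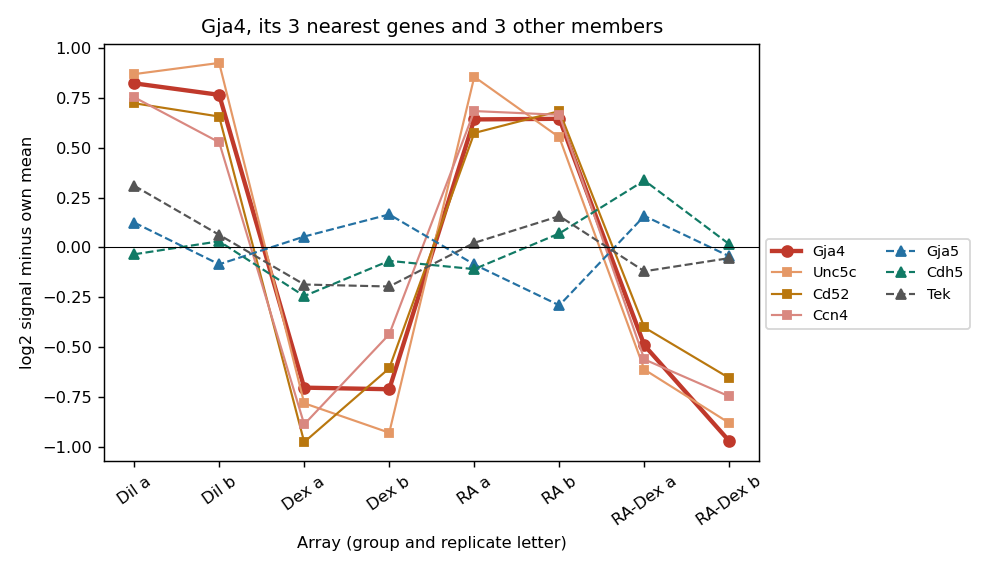
log2 signal of each gene minus its own mean over the 8 arrays (vertical axis), by array (horizontal axis), for Gja4 and its nearest genes Unc5c, Cd52 and Ccn4 (solid lines) and for Gja5, Cdh5 and Tek (dashed lines). The lines join arrays only to guide the eye. The solid lines drop on every dexamethasone array, and the dashed lines stay within 0.35 of their means. For Unc5c, Cd52 and Ccn4 the drop follows from their choice by likeness to Gja4 on these arrays.

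Gja5, the other arterial connexin, did not follow Gja4. Its signal was 435 and 377 in Dil, 415 and 448 in Dex, 376 and 327 in RA, and 446 and 387 in RA-Dex. The highest and lowest arrays differed 1.37-fold and the dexamethasone arrays overlapped the others. The average dexamethasone effect was 0.17 with a 95% interval of -0.23 to 0.57 (limma adjusted p = 0.673), which does not reach the interval of Gja4, and RA-Dex against RA gave 0.24 (-0.32 to 0.81). Both RA arrays were the lowest of the 8, a position that 4.66% of tested genes held. That position was nearly a tie, with RA replicate a at 376.43 and Dil replicate b at 376.67. The average retinoic acid effect was -0.13 (-0.53 to 0.27, limma adjusted p = 0.964).

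Of 8 other connexin genes with a probe set, 3 passed the filter, 1 fell and 0 rose with dexamethasone, with a median of 0.24 against -0.03 over all tested genes. The 1 that fell was Gja1, the connexin of smooth muscle, mesenchyme and many other cells, with signals of 4388 and 3409.6 in Dil, 5828 and 5089 in RA, 2704 and 2883 in Dex, and 2763 and 3255 in RA-Dex. Every dexamethasone array was below every other array, at 0.63 of the level (-0.67 ± 0.12, limma adjusted p = 0.00614), and RA-Dex against RA gave -0.86 (limma adjusted p = 0.0188). Its probe set is of a design class that may also match related transcripts, and the call was lost with no filter (0.0672) and when all probe sets of the gene were averaged (-0.51, 0.0631).

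Efnb2 had signals of 1773 and 2272 in Dil, 2321 and 2324 in Dex, 2666 and 2138 in RA, and 2519.8 and 3242 in RA-Dex. Its lowest array was in Dil and its highest in RA-Dex. Both Dil arrays lay below both Dex arrays, and both Dex arrays below both RA-Dex arrays. The RA arrays overlapped each of these groups, and the share of all tested genes in this order was not counted. RA-Dex against Dil was the largest difference (0.51 ± 0.193, 95% interval 0.08 to 0.94), and it did not pass (limma adjusted p = 0.21). Averaged effects were 0.24 (-0.07 to 0.54) for dexamethasone, with RA-Dex against RA at 0.26 (-0.17 to 0.69), and 0.27 (-0.03 to 0.58) for retinoic acid. Among 10 tested ephrins and Eph receptors, Efna1, another ephrin ligand of endothelium and epithelium, fell with dexamethasone (-0.73 ± 0.132, limma adjusted p = 0.00624) from 890 to 1092 on the arrays without it to 564 to 602 on those with it. RA-Dex against RA gave -0.86 for Efna1 (limma adjusted p = 0.0317), and the averaged call was lost with a minimum change of 0.5 (limma adjusted p = 1). Epha2, a receptor for the A-type ephrins, rose (0.61 ± 0.164, limma adjusted p = 0.0466; 0.95 and 0.0513 in RA-Dex against RA), a call lost with no filter (0.107) and without any 1 array other than Dil replicate a and RA replicate b (adjusted p 0.107 to 0.145).

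**Figure D3:**
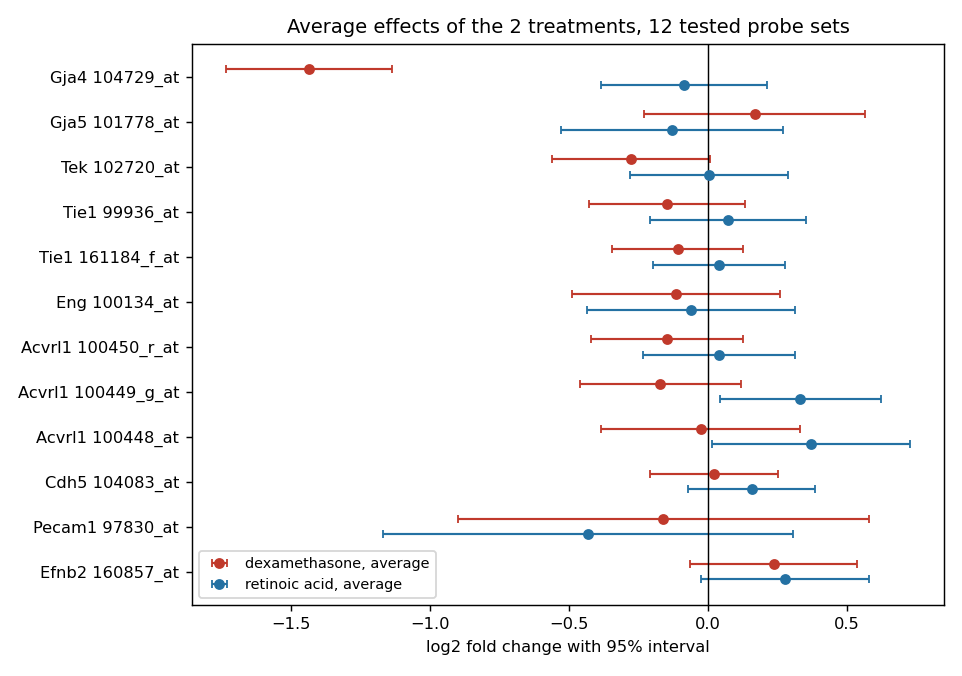
log2 fold change with its 95% interval (horizontal axis) of the 12 tested probe sets for the average effect of dexamethasone and of retinoic acid, 4 arrays against 4. Gja4 alone was called, at -1.44 for dexamethasone, and every other interval for dexamethasone includes 0.

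Tek, the angiopoietin receptor, had signals of 1181 and 996 in Dil, 969 and 1063 in RA, 838 and 832 in Dex, and 878 and 919 in RA-Dex. All 4 dexamethasone arrays were below the 4 others, as they were for Gja4 and for 8.38% of tested genes. The difference was small: an average of -0.28 with a 95% interval of -0.56 to 0.01 (limma adjusted p = 0.249), so the call was not reached. Dex against Dil gave -0.38 (-0.78 to 0.03) and RA-Dex against RA -0.18 (-0.58 to 0.23).

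Tie1, the orphan partner of Tek, was lowest in the Dex group. By its brighter probe set the signals were 4552 and 3577 in Dil, 2755 and 2682 in Dex, 2865 and 3494 in RA, and 4258 and 3431 in RA-Dex, so that both Dex arrays lay below the 6 others. Tek and Tie1 were the 2 of 9 tested members in that position, which 4.81% of all tested genes held. Dex against Dil was -0.57 ± 0.18 (95% interval -0.97 to -0.17, unadjusted p = 0.00918 in limma), and it did not pass over all probe sets (limma adjusted p = 0.137). RA-Dex against RA went the other way, at 0.27 (-0.12 to 0.67), and the interaction of 0.84 ± 0.254 did not pass either (limma adjusted p = 0.763). The second probe set had signals of 3038 and 2848 in Dil, 2172 and 2538 in Dex, 2565 and 2640 in RA, and 2884 and 2722 in RA-Dex, and again its Dex arrays were below the 6 others. Its Dex against Dil value was -0.33 (-0.66 to 0.01, limma adjusted p = 0.356).

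Angpt1, the ligand, was close to the lower end of the array's range and was not tested. Its signal was 115 and 91.7 in Dil, 117.2 and 128 in Dex, 39.7 and 110.0 in RA, and 189.9 and 113 in RA-Dex, so that 1 of 8 arrays was under the floor of 85.3. Both Dex arrays lay above both Dil and both RA arrays, and both RA-Dex arrays above both RA arrays. RA-Dex overlapped Dil and Dex, and RA overlapped Dil. The nearest arrays were close, 117.2 (Dex) against 115 (Dil) and 113 (RA-Dex) against 110.0 (RA). No fold is given, and the share of all genes in these positions was not counted. A related list held angiopoietin, angiopoietin-like and Tie pathway genes. Of its 4 tested genes 0 were called with dexamethasone by limma (2 at an unadjusted p under 0.05, against 22.3% of all tested genes). Values ran from 0.17 for Angpt2, the context-dependent antagonist of Tek, to 0.41 for the angiopoietin-like gene Angptl4 (95% interval 0.13 to 0.70, limma adjusted p = 0.0823). Ptprb, the phosphatase that restrains Tek, had 0.34 (0.03 to 0.65, limma adjusted p = 0.187).

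**Figure D4:**
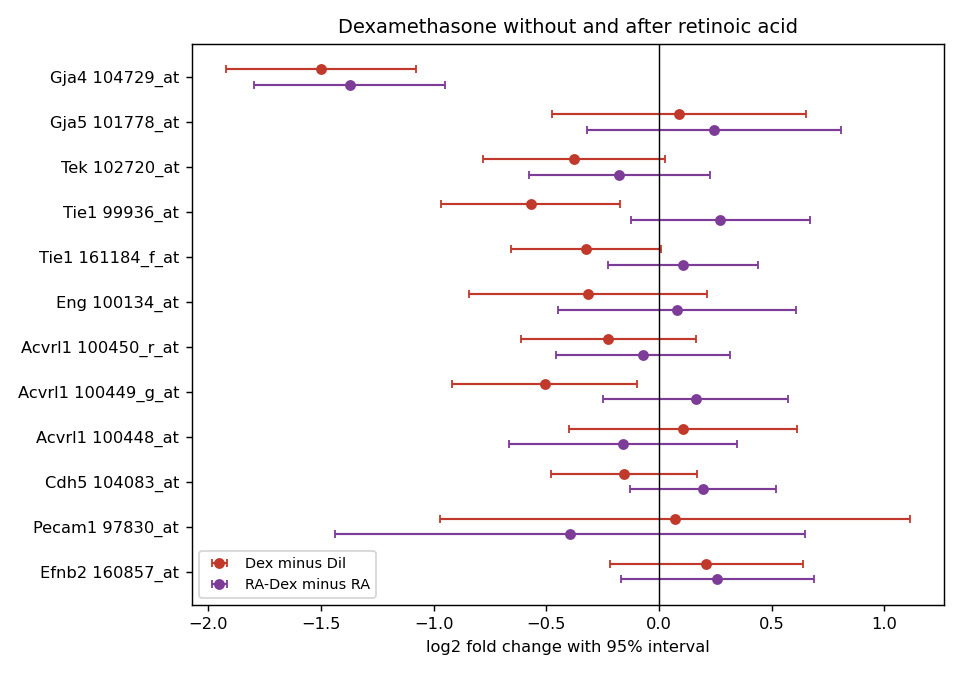
log2 fold change with its 95% interval (horizontal axis) of the 12 tested probe sets in Dex against Dil and in RA-Dex against RA, 2 arrays against 2. Gja4 lies at -1.50 and -1.37, and both probe sets of Tie1 lie below 0 without retinoic acid and above 0 after it.

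Eng, the co-receptor, varied more between arrays of a group than between groups. Its signals were 18819.7 and 24252 in Dil, 15554 and 18986 in Dex, 23369.6 and 13614 in RA, and 21607 and 16444 in RA-Dex. The RA arrays alone spanned nearly the whole range, and the average dexamethasone effect was -0.12 (95% interval -0.49 to 0.26, limma adjusted p = 0.769). RA-Dex against RA gave 0.08 (-0.45 to 0.61).

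Acvrl1, the type I receptor that pairs with endoglin, had 3 probe sets that did not move alike. The brightest had 3698 and 5181 in Dil, 3619.9 and 3880.1 in Dex, 4196 and 4332 in RA, and 4344 and 3785 in RA-Dex, with an average dexamethasone effect of -0.15 (-0.42 to 0.13, limma adjusted p = 0.559) and RA-Dex against RA at -0.07 (-0.46 to 0.31). The second had its lowest values in Dex, 1427 and 1252 against 1659 to 2296 on the 6 other arrays, with Dex against Dil at -0.51 ± 0.185 (limma adjusted p = 0.211). The dimmest had 687 and 904 in Dil, 779 and 924 in Dex, 1005 and 1242 in RA, and 1156 and 864 in RA-Dex, and its Dex against Dil value was 0.11 (limma adjusted p = 0.895). The low Dex values of the second probe set were thus not seen in the dimmest.

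Of 12 tested genes of the endoglin and ALK1 pathway, 2 rose with dexamethasone, 0 fell, and the median was -0.12. Of all tested genes 4.61% were called higher in this comparison. Smad1, a transducer of bone morphogenetic protein signals, had 0.55 ± 0.124 (limma adjusted p = 0.0209; 0.74 and 0.0433 in RA-Dex against RA), lost without replicate a of Dil or of Dex or replicate b of RA-Dex (adjusted p 0.0588 to 0.105) and with no filter (0.0789). Acvr2a, an activin and bone morphogenetic protein receptor, had 0.72 ± 0.171 (limma adjusted p = 0.0265; 0.59 and 0.261 in RA-Dex against RA), lost with no filter (0.143) and without any 1 array other than Dil replicate a and RA replicate a (adjusted p 0.0548 to 0.126). The target genes Id1, Id2 and Id3 had -0.14, -0.10 and -0.22, none called (limma adjusted p = 0.629, 0.629 and 0.259).

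Cdh5 was among the steadiest members. Its signals were 9231.0 and 9657 in Dil, 7985 and 9024 in Dex, 8768 and 9924 in RA, and 11927 and 9557 in RA-Dex. The highest array was 1.49 times the lowest, and the average dexamethasone effect was 0.02 with a 95% interval of -0.21 to 0.25 (limma adjusted p = 0.942). On the linear scale that interval runs from 0.866 to 1.19 times the level, and RA-Dex against RA gave 0.19 (-0.13 to 0.52). RA-Dex against Dex gave 0.33 (0.01 to 0.65), which did not pass (unadjusted p = 0.046, limma adjusted p = 1).

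Pecam1 was dim and its arrays disagreed within groups. Its signals were 508 and 375 in Dil, 357 and 591 in Dex, 500.3 and 289 in RA, and 175 and 479.8 in RA-Dex. The pooled SD within groups was 0.66 on the log2 scale, against 0.15 for Cdh5, and the average dexamethasone effect of -0.16 had a 95% interval of -0.90 to 0.58, with RA-Dex against RA at -0.39 (-1.44 to 0.65). Without RA-Dex replicate a the value was 0.20. On the linear scale the interval runs from 0.536 to 1.49 times the level, the widest of the 9 tested genes. Besides Cdh5, a related list held genes of adherens junctions, other junctions and adhesion. Of its 11 tested genes, 0 were called by limma with dexamethasone (2 at an unadjusted p under 0.05), with values from -0.51 (Cdh2) to 0.31 (Tjp1).

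Retinoic acid changed no member past the threshold, and no check of the retinoic acid labels against a marker gene is given here. Averaged over the day 4 treatment, limma called 0 of 9 tested members (0 at an unadjusted p under 0.05), against 0.142% and 6.3% of all tested genes. The second and the dimmest probe set of Acvrl1, which do not represent the gene in these counts, had 0.33 and 0.37 (unadjusted p = 0.0283 and 0.044, limma adjusted p = 0.723 and 0.773). In RA-Dex against Dex that second probe set had 0.67 (95% interval 0.26 to 1.08, unadjusted p = 0.00434 in limma, adjusted p = 0.738). Its interaction was 0.67 (unadjusted p = 0.0271 in limma, adjusted p = 0.858). In RA against Dil, 0 members were called (0 at an unadjusted p under 0.05), against 0.0178% and 8.17% of all tested genes. In RA-Dex against Dex, 0 members were called (2, Tie1 and Cdh5, at an unadjusted p under 0.05), against 0.0712% and 4.04% of all tested genes. In the interaction, 0 were called (1, Tie1, at an unadjusted p under 0.05), against 0.0178% and 5.75% of all tested genes. For dexamethasone 1 of 9 members was called (1 at an unadjusted p under 0.05), against 8.44% and 22.3% of all tested genes.

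Related genes were called in either direction after dexamethasone, and the counts stand against 4.61% of all tested genes called higher and 3.83% lower. With a minimum change of 0.5 the calls that remained among the genes named from the 8 related lists were those of Cxcl12, Lpl and Vcam1. Of 22 tested endothelial genes outside the set, 2 rose, 1 fell and 19 did not pass, with a median of 0.06. Lmo2, a transcriptional adaptor of blood and endothelium, fell from 1402 to 1652 on the arrays without dexamethasone to 730 to 983 on those with it (-0.79 ± 0.136, limma adjusted p = 0.00472), with -0.92 in RA-Dex against RA (limma adjusted p = 0.0266). The averaged call of Lmo2 was lost with the minimum change (limma adjusted p = 0.866). Ace, the angiotensin-converting enzyme of lung capillaries, rose from 1175 to 1865 up to 2593 to 3262 (0.93 ± 0.153, limma adjusted p = 0.00356; 1.04 and 0.0247 in RA-Dex against RA), a call lost with no filter (0.0806) and over the mean of its probe sets (0.45, 0.17). Cd93, an endothelial surface lectin, had 0.51 ± 0.13 (limma adjusted p = 0.0377; 0.78 and 0.0457 in RA-Dex against RA), lost without any 1 array other than RA replicate a (adjusted p 0.0528 to 0.159).

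Of 11 tested genes of arterial and Notch character, 3 fell and 1 rose, with a median of -0.07. The 3 became 1 with the replicate block, with the minimum change, without both Dil arrays, and without Dil replicate a, Dex replicate b or either RA-Dex replicate. Cxcl12, a chemokine made by arterial endothelium and stroma, fell by 1.60 on the log2 scale (limma adjusted p = 2.91e-05), and by 1.30 in RA-Dex against RA (limma adjusted p = 0.0027). Notch1, the receptor that specifies arterial cells, had 2551 and 2524 in Dil, 2377 and 2474 in RA, 1746 and 1647 in Dex, and 2011 and 1901 in RA-Dex, with the 4 dexamethasone arrays below the others (-0.45 ± 0.105, limma adjusted p = 0.0259). In RA-Dex against RA it had -0.31 and did not pass (limma adjusted p = 0.347). Its averaged call was lost without any 1 array other than RA replicate a (adjusted p 0.0518 to 0.113). Cxcr4, the receptor of Cxcl12, had -1.17 ± 0.297 (limma adjusted p = 0.0372; -1.30 and 0.145 in RA-Dex against RA), lost without 1 of 5 arrays, Dil replicate a, Dex replicate b, RA replicate b or either RA-Dex replicate (adjusted p 0.062 to 0.128). Gata2, an endothelial and blood transcription factor, rose (0.63 ± 0.114, limma adjusted p = 0.00614), but the mean of its probe sets did not pass (0.28, 0.28). RA-Dex against RA gave 0.70 for Gata2 (limma adjusted p = 0.04 in the fit with all arrays). Without both Dil arrays the average is this same comparison, and there the 0.70 did not pass (limma adjusted p = 0.0523).

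Of 8 tested venous and capillary genes 1 rose, Lpl, the lipase bound to capillary walls, and 1 fell, Vcam1, a leukocyte adhesion molecule (limma adjusted p = 0.0837 with no filter), with a median of 0.31. RA-Dex against RA gave 2.32 for Lpl (limma adjusted p = 0.000995) and -2.03 for Vcam1 (limma adjusted p = 0.00766). Among the lymphatic markers Lyve1, a hyaluronan receptor of lymphatic endothelium and some macrophages, rose (0.84 ± 0.129, limma adjusted p = 0.00239; 0.82 and 0.0354 in RA-Dex against RA), while Prox1, which defines lymphatic cells, was at or under the floor on all arrays. The 9 tested members had a median of -0.15, with 6 values below 0, against a median of -0.03 over all tested genes.

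**Figure D5:**
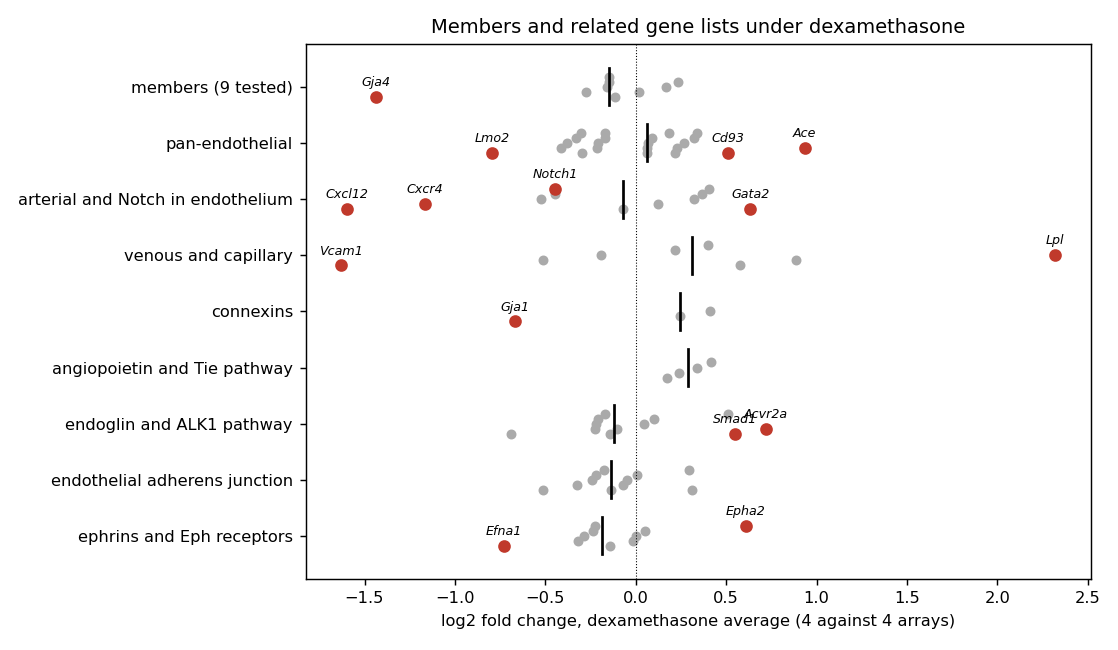
log2 fold change for dexamethasone, 4 arrays against 4 (horizontal axis), of the 9 tested members and of the 8 related lists. Each point is a gene, red and named where its adjusted p was under 0.05, and black bars are list medians, from -0.18 for the ephrins to 0.31 for the venous and capillary genes.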

How the data were processed

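Whole-lung RNA was measured on 8 arrays. The deposited table holds linear intensity values, 1 per probe set and array. Per the values themselves, the authors had scaled each array to a common level (2% trimmed means between 800.41 and 800.44); no software is named there or in the labels. No further normalization was made. Signals under 85.3, the pooled 25th percentile, were set to that floor and log2 was taken. After 66 control probe sets were left out, those with a mean above 200.8, the pooled 40th percentile, were tested. Symbols came from the platform annotation of 2016, updated by Entrez ID (10817 of 10833 probe sets with 1 symbol matched). A gene was counted by its brightest probe set. One mean per group was fitted with limma 3.58.1 (R 4.3.3, eBayes with an intensity trend, two-sided, Benjamini-Hochberg over 7309 probe sets, calls under 0.05, 4 residual and 6.69 prior degrees of freedom). The fit was also run on simulated data with normal noise. For the dexamethasone average it called 7 of 50 changes of 0.5 on the log2 scale and 35 of 50 changes of 1, with 7 false calls. Changes of such sizes in uncalled members could therefore be missed.

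The members, the 8 related lists and 11 marker lists were chosen with earlier results of these data known. Named were all members, list genes with the smallest p or past the threshold, and the 3 genes nearest to a called member. Lists of heart muscle, mesenchyme, platelet and erythroid markers had 0, 1, 0 and 0 rises and 0, 1, 0 and 0 falls in the dexamethasone average (heart muscle in Dex against Dil: 8 of 8 below 0, median -0.50, 1 called lower), the skeletal muscle and squamous lists 0 and 0 rises and 0 and 0 falls. Among the lung markers 2 rose and 0 fell. The alternatives were those of normalization, filter, floor, variance model, replicate block, minimum change, probe set averaging and left-out arrays. Without both Dil arrays, the dexamethasone average was RA-Dex against RA alone and the retinoic acid average RA-Dex against Dex alone. Promoters came from RefSeq (GRCm38.p6).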

Additional observations from a re-analysis of the deposited data

Results flagged for a closer look

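Tie1 was picked out because retinoic acid moved all its arrays one way without dexamethasone and the other way with it. By the brighter probe set, both RA arrays were below both Dil arrays and both RA-Dex arrays above both Dex arrays, with an interaction of 0.84 on the log2 scale (limma adjusted p = 0.763). By the second Tie1 probe set the same held, and dexamethasone also moved all arrays down without retinoic acid and up after it, with an interaction of 0.43 (limma adjusted p = 0.892). The second probe set of Acvrl1 likewise fell on both arrays with dexamethasone alone and was higher on both after retinoic acid, with an interaction of 0.67 (limma adjusted p = 0.86), a pattern that the other 2 probe sets of Acvrl1 did not show. None of these differences passed over all probe sets. The share of all tested probe sets with such opposite movements was not counted, so these patterns cannot be set against it. Groups of 2 arrays were too small to look for single outlying arrays.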

How the results depend on the processing

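The count of called members was 1 (Gja4) for the dexamethasone average, Dex against Dil and RA-Dex against Dil and 0 for retinoic acid and the interaction under all alternatives run. For RA-Dex against RA it was 1 except with a minimum log2 change of 0.5, where it was 0 (Gja4 limma adjusted p = 0.0561). The average for Gja4 ranged from -1.56 to -1.32 over 19 alternatives, with an adjusted p of at most 0.00985. With the replicate block the number of called members stayed 1 for the dexamethasone average and changed in no comparison, while the probe sets called over all went from 572 to 454 there, from 293 to 195 in RA-Dex against Dil and from 11 to 5 for the retinoic acid average. The labels do not say what the letters share. The differences between a and b correlated between groups at -0.22 to 0.14, above 0 for Dil with Dex (0.14) and RA with RA-Dex (0.10) only. Whether arrays of the same letter have a batch in common was not tested. Uncalled members changed sign in 4 to 14 of 160 or 169 values per comparison. Those furthest from their dexamethasone average with all arrays were Tie1 (0.27 without both Dil arrays), Eng (0.08) and Pecam1 (0.20 without RA-Dex replicate a). The value of Eng was reached without RA replicate a and without both Dil arrays. The setting without both Dil arrays leaves only RA-Dex against RA, so its values for Tie1 and Eng are those of that comparison and not a moved average. Over all probe sets, the calls for the dexamethasone average went from 572 to 349 with no filter and 107 with the minimum change, those of Dex against Dil from 236 to 96 and 57, those of RA-Dex against RA from 256 to 143 and 53, and those of RA-Dex against Dil from 293 to 147 and 76. The retinoic acid average went from 11 to between 2 and 23, RA against Dil from 2 to between 0 and 16, RA-Dex against Dex from 7 to between 2 and 16, and the interaction from 1 to between 0 and 22. The cause was not tested, except that the minimum change asks for a larger effect by its construction.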
